A study of Mus musculus with 46 samples.

Results

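The genes described here are protein-coding genes that carried the histone variant H3.3 in mouse embryonic fibroblasts (MEFs) and throughout the unsuccessful fractions of reprogramming, but had no H3.3 peak in the late cells of the successful route, in induced pluripotent stem cells (iPSCs) or in embryonic stem cells. They were chosen by peak lists alone: a gene counted as bound when the midpoint of an H3.3 peak lay between 1 kb before its start and 1 kb after its end, and members were bound in D0, D3, D6T-, D9T-, D6T+, D9T+, D12S- and D16S- and unbound in D12S+, D16S+, iPSCs and ESD3. Of 22367 protein-coding genes, 120 met the rule. The opposite pattern, bound in those 4 libraries and in none of the 8, was met by 49 genes. All values of H3.3 in these 12 libraries were used by the rule or come from the libraries it used, so they are given as a description, while H3K4me3, H3K36me3 and the H3.3 libraries of transdifferentiation took no part in the choice. The rule did fix H3.3 as absent from members in D12S+, D16S+ and iPSCs. How far this bears on the other marks in the same cells was not tested.

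The fibroblasts carried a reporter allele of Oct4 (Pou5f1), in which EGFP is translated from an IRES in the Oct4 transcript, and reprogramming was induced by infection with pMXs retroviruses carrying Sox2, Klf4, Oct4 and c-Myc. D0 were the fibroblasts on day 0 and D3 the unsorted culture on day 3. D6T- and D9T- cells lacked the fibroblast surface protein Thy-1 on days 6 and 9, and D12S+ and D16S+ cells displayed the pluripotency-associated antigen SSEA-1 on days 12 and 16. Thy-1-positive cells (D6T+, D9T+) and SSEA-1-negative cells (D12S-, D16S-) were the unsuccessful fractions, iPSCs were the converted cells, and ESD3 is an established mouse embryonic stem cell line. For transdifferentiation, MEFs received Scl, Lmo2, Runx1 and Bmi1 and were collected before infection (MEF), on day 4 (D4), and after sorting for the progenitor receptor cKit (cKit+, cKit-). By the paper's methods the infected fibroblasts grew on inactivated OP9 stromal cells with a cytokine cocktail. Whether stromal chromatin entered the libraries collected after infection cannot be told from the labels. Every sorted fraction is a bulk population defined by 1 surface antigen, and each group had 1 library, so differences between libraries have no replicate error to be judged by and were not tested.

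H3.3 replaces the canonical histone H3 outside of DNA replication. Its chaperones differ by place: Hira acts where genes are transcribed and at their enhancers, whereas Atrx with Daxx serves silent repeats and telomeres. Trimethylation of H3 at lysine 4 (H3K4me3) marks the starts of active and poised genes, above all CpG-rich ones, and trimethylation at lysine 36 (H3K36me3) is written along gene bodies behind the elongating polymerase. Fibroblasts are known for mesenchymal transcription factors, secreted collagens and contractile actin fibres, which cells give up when they become pluripotent.

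Levels are sums of the normalized tag counts of all peaks of a gene, in tags per 10 M, and are not divided by gene length unless stated. The 8 libraries in which members were bound held 60705 to 89727 H3.3 peaks with 10.9% to 22.0% of their tags inside peaks. Among the 4 in which members were unbound, D16S+ had 34062 peaks and 4.88% of tags in peaks, D12S+ 45922 and 6.93%, ESD3 52506 and 7.40%, and iPSCs 81867 and 13.96%. A missing peak therefore means that a gene did not pass the calling limit at that enrichment, and in 3 of the 4 libraries this was lower than in any of the 8. Depth ranged from 18.7 M tags in D16S+ to 41.2 M in iPSCs. As a check of the labels, 13 of 14 fibroblast marker genes were bound in D0 and 2 in ESD3, while 2 of 9 pluripotency markers were bound in D0 and 9 in iPSCs. The separation was not complete, since 4 of the fibroblast markers were bound in iPSCs, and 5 and 6 of the pluripotency markers in the unsuccessful fractions D12S- and D16S-, against 7 and 8 in D12S+ and D16S+. The fibroblast markers Twist2, Col6a3 and Pdgfra are themselves members, so the rule fixed their state in these libraries and they add nothing to the check.

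The 10 members with the most H3.3 in D0 are given first. Twist2, a basic helix-loop-helix repressor of mesenchymal cells (chromosome 1, 93698038 to 93744605, mm9), had a summed score of 859 in D0 and 73.8 in D3, 38.4 and 5.56 in the Thy-1-negative cells of days 6 and 9, 333 and 171 in the Thy-1-positive cells, and 55.2 and 46.8 in D12S- and D16S-. Its level in both Thy-1-positive fractions was thus above that in D3 and in both Thy-1-negative fractions. Col6a3, a chain of the pericellular collagen VI (chromosome 1, 92663435 to 92740529), had 666 in D0 and 54.2 in D3, 67.7 and 64.2 in the Thy-1-negative cells of days 6 and 9, 64.2 and 59.3 in the Thy-1-positive cells, and 76.2 and 11.7 in D12S- and D16S-. The Thy-1 fractions here lay between 59.3 and 67.7, with D0 far above them and D16S-, from 1 peak, below. Cdh11, which encodes the mesenchymal adhesion molecule OB-cadherin (chromosome 8, 105156895 to 105309011), had 546 in D0 and 423 in D3, 111 and 23.4 in the Thy-1-negative cells of days 6 and 9, 143 and 73.9 in the Thy-1-positive cells, and 35.7 and 6.10 in D12S- and D16S-. It was lower in each later library of both routes, and its D16S- value came from 1 peak.

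Acta2, the smooth muscle actin of contractile fibroblasts (chromosome 19, 34315580 to 34329826), had 350 in D0 and 98.5 in D3, 54.1 and 50.4 in the Thy-1-negative cells of days 6 and 9, 114 and 94.0 in the Thy-1-positive cells, and 190 and 51.5 in D12S- and D16S-. Its Thy-1-positive fractions lay above the Thy-1-negative ones on both days, and D12S- was the highest library after D0. Pla2g4a, the cytosolic phospholipase that releases arachidonic acid, had 357 in D0 and 172 in D3, 49.9 and 14.5 in the Thy-1-negative cells of days 6 and 9, 131 and 76.9 in the Thy-1-positive cells, and 56.7 and 24.9 in D12S- and D16S-. Fgf2, the basic fibroblast growth factor, had 299 in D0 and 47.4 in D3, 42.8 and 21.5 in the Thy-1-negative cells of days 6 and 9, 46.3 and 92.8 in the Thy-1-positive cells, and 85.3 and 70.1 in D12S- and D16S-. Its unsuccessful fractions of days 9 to 16 lay above D3, unlike those of Pla2g4a. The rest of the leading 10 were Sema5a, a transmembrane guidance protein, with 340 in D0 and 15.6 in D16S-, Masp1, a protease of the lectin pathway of complement, with 295 and 9.02, Col8a1, a short-chain network collagen, with 267 and 15.6, and 1700112E06Rik, a transcript model spanning 1036 kb, with 398 and 45.9.

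**Figure D1:**
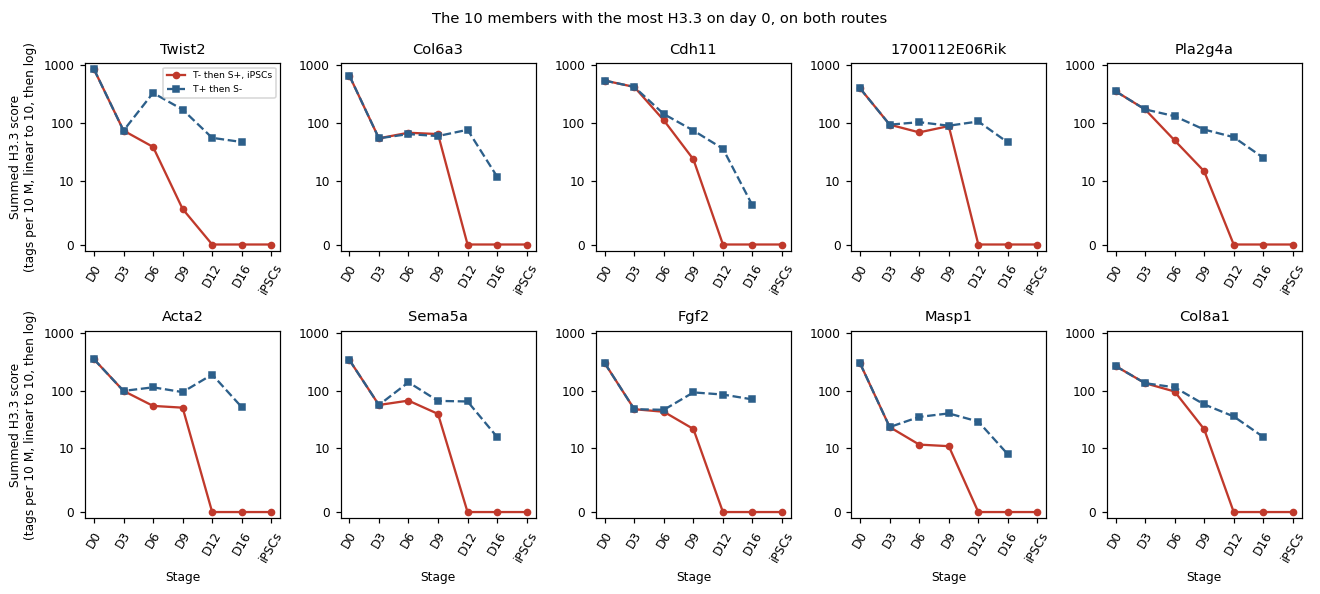
Summed H3.3 score (tags per 10 M, axis linear to 10 and logarithmic above) of the 10 members with the most H3.3 in D0, by stage. Red circles follow D0, D3, D6T-, D9T-, D12S+, D16S+ and iPSCs, blue squares D0, D3, D6T+, D9T+, D12S- and D16S-, with 1 library per point. Zeros on the red line from day 12 are set by the rule. Twist2 shows the widest gap between the Thy-1 fractions, 5.56 against 171 on day 9, and Col6a3 almost none.

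Most members carried less H3.3 than these. The median D0 sum of the 120 members was 58.5 (quartiles 29.8 and 98.6), against 94.3 in the 7819 genes that were bound in the same 8 libraries and in at least 1 of the other 4, called retained genes below. All 13198 genes bound in D0 had a median sum of 51.1. Divided by the length of the gene with its flanks, the D0 medians per kb were 1.18 for members, 2.85 for retained genes and 1.88 for all genes bound in D0. Members thus lay above all bound genes by sum and below them per kb. Sums above 100 were found for 29 members and sums below 20 for 18. In D16S- the medians were 22.2 for members and 65.9 for retained genes. A single peak was all that 18.3% of members had in D0 and 40.0% in D16S-, against 13.8% and 15.3% of retained genes. Of the 120, 31 had several peaks in each of the 8 libraries, and 27 rested on 1 peak in at least 4 of them.

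Members kept a peak in the unsuccessful fractions by the rule, but their median summed score there was below that of D0. Relative to D0, the median member had 0.436 and 0.548 of the H3.3 sum in D6T+ and D9T+, and 0.868 and 0.370 in D12S- and D16S-. Retained genes had 0.642, 0.701, 1.31 and 0.733 in the same libraries. D16S- was higher than D0 in 24 of 120 members and D12S- in 53. On the successful route the median ratio of members to D0 was 0.563 in D3, 0.820 in D6T- and 0.499 in D9T-, against 0.688, 1.19 and 0.838 in retained genes. The highest of the 8 sums lay in D0 for 44 members (36.7%, retained genes 25.8%). It lay in D6T- for 33 (27.5%, retained genes 27.8%) and in D12S- for 26 (21.7%, retained genes 36.5%). The lowest lay in D16S- for 34 (28.3%, retained genes 17.1%), in D9T- for 27 (22.5%, retained genes 13.6%) and in D6T+ for 22 (18.3%, retained genes 21.3%). For D6T- and D6T+ members were thus near retained genes. In these bulk populations fewer cells with H3.3 at a gene, less H3.3 per cell and lower enrichment of the library cannot be told apart.

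**Figure D2:**
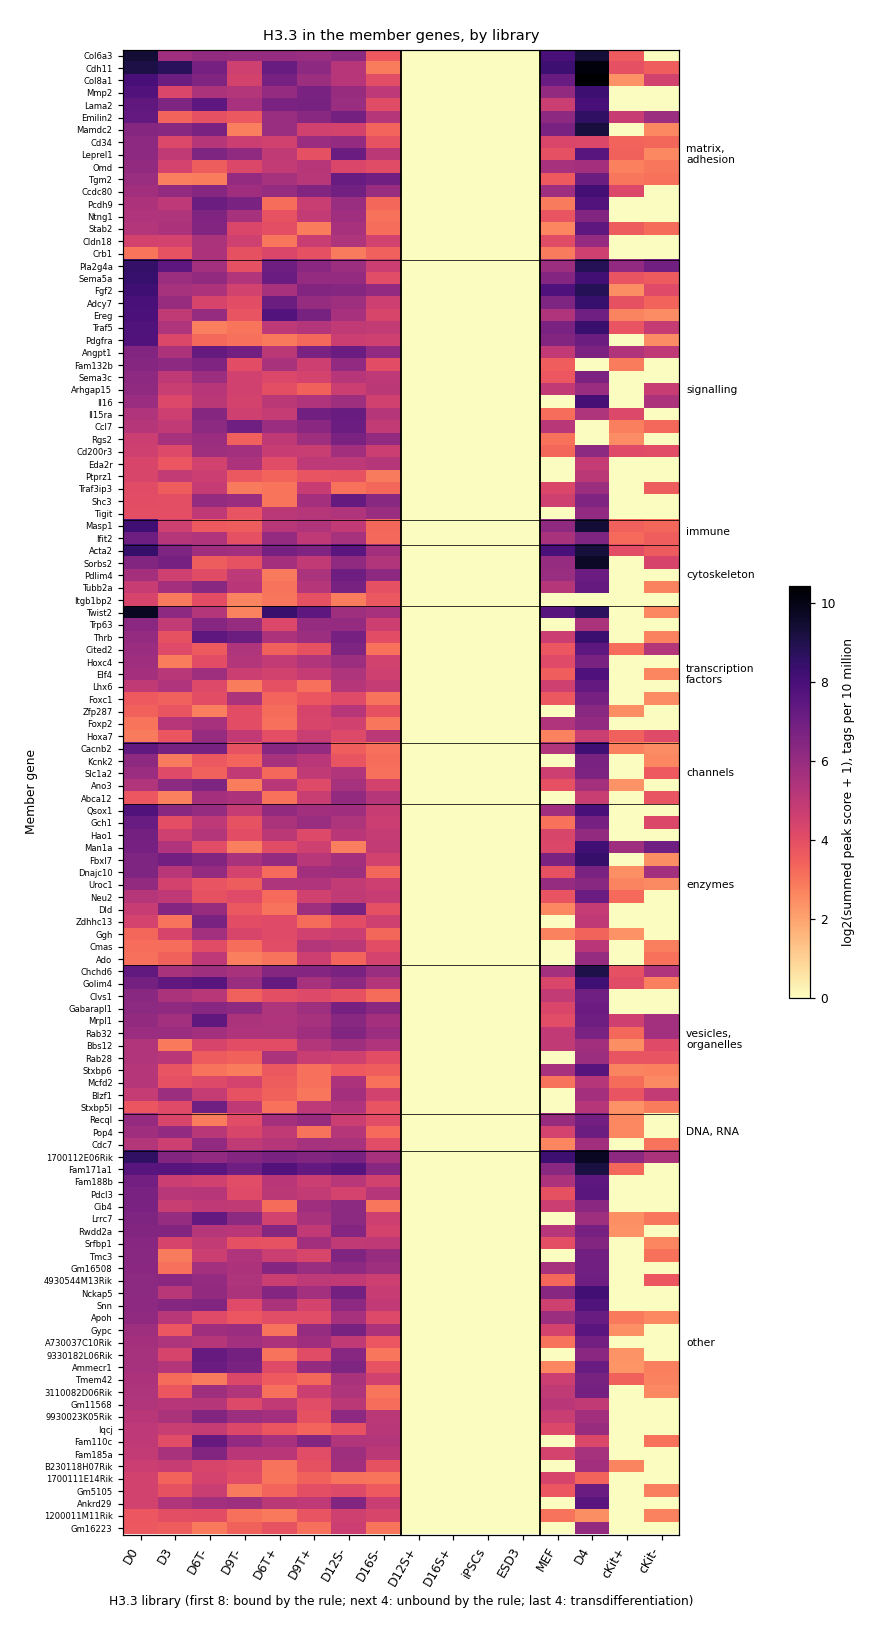
Summed H3.3 score of each member (rows, grouped by role and ordered by D0) in the 16 H3.3 libraries (columns), as log2 of the sum plus 1, in tags per 10 M. Black lines separate the 8 libraries in which the rule required a peak, the 4 in which it required none, and the 4 of transdifferentiation, which it did not use. D4 is dark for 116 of 120 genes, and cKit+ is coloured for 57.

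The limits of the rule were narrow. Just inside it, Itgb1bp2, which encodes the muscle protein melusin, had its lowest sum of 5.41 in D9T-, Twist2 of 5.56 in D9T-, and Abca12, a lipid transporter of the epidermis, of 5.81 in D3. Just outside it were 3 genes with far more H3.3 in D0. Col5a1, a fibrillar collagen chain, had 2259 in D0, 27.3 in D16S- and 5.83 in iPSCs, which left it out. Dnm3, a dynamin, had 1078 in D0, and its 23.3 in D12S+ left it out, as 7.11 in D12S+ did for Loxl2, a collagen cross-linking enzyme with 1060 in D0. In all, 423 genes missed the rule by 1 library. Of these, 143 had a peak in iPSCs, 98 in D12S+, 52 in ESD3 and 22 in D16S+, and 31 lacked one in D16S-.

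By known role, assigned by hand after membership was known, the largest groups were 21 signalling ligands, receptors and transducers and 17 matrix and adhesion genes. The matrix group held, beside Col6a3, Col8a1 and Cdh11, the basement membrane laminin chain Lama2 (166 in D0), the elastic fibre glycoprotein Emilin2 (160), the gelatinase Mmp2 (219), the collagen prolyl 3-hydroxylase Leprel1 (72.8), the keratan sulfate proteoglycan Omd (66.9), the protocadherin Pcdh9 (43.0) and the netrin family member Ntng1 (39.7). Among signalling genes were Pdgfra (218 in D0), the receptor that marks mesenchymal progenitors, the epidermal growth factor family ligand Ereg (245), the Tie2 ligand Angpt1 (88.6), the secreted semaphorin Sema3c (73.1), the cyclase Adcy7 (256), which makes cyclic AMP, and the G protein regulator Rgs2 (24.6). The 11 transcription factors and cofactors ranged from Twist2 down to Foxc1 (11.5) and Foxp2 (7.05), both forkhead factors, and included the thyroid hormone receptor Thrb and the epidermal factor Trp63. Further groups were 13 metabolic and protein-modifying enzymes, 12 genes of vesicle traffic and organelles, 5 cytoskeletal genes, 5 channels and transporters, 3 genes of DNA and RNA processing and 2 immune effectors, and 31 genes had other or no known roles.

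Against gene lists of pathways, members made up 28 of 1260 listed genes, and 4.15% of the 675 listed genes bound in all 8 libraries, where members were 1.51% of all 7939 genes bound in those 8. Receptor tyrosine kinase and MAPK signalling held 5 members (Fgf2, Ereg, Pdgfra, Angpt1 and Shc3) among 79 genes bound in the 8, matrix proteins 4 (Col6a3, Col8a1, Lama2 and Emilin2) among 45, actin and contractile genes 3 (Acta2, Sorbs2 and Pdlim4) among 62, axon guidance 3 (Sema5a, Sema3c and Ntng1) among 52, and mesenchymal transcription factors 3 (Twist2, Foxc1 and Foxp2) among 63. There were 2 members each among 32 matrix enzymes (Mmp2 and Leprel1), 40 adhesion receptors (Cdh11 and Pcdh9) and 62 genes of cyclic AMP and calcium signalling (Adcy7 and Cacnb2). A single member was found among 35 proteoglycan and sulfation genes (Omd) and among 6 blood and endothelial genes (Cd34). No member came from the lists for TGF-beta and BMP (31 bound in the 8), Wnt (27), AP-1 and Hippo (34), pluripotency (11), epithelial genes (18) or housekeeping genes (25). These lists were made with earlier results of the data known, and the counts carry no test.

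Members were long genes. Their median length was 49.2 kb (quartiles 19.0 and 150 kb), against 31.2 kb in retained genes and 15.4 kb in all protein-coding genes. They ranged from Ccl7, a chemokine gene of 1.81 kb, to 1700112E06Rik. Chromosome 1 held 16 members, which is 13.3% of them and compares with 5.53% of all protein-coding genes, and chromosome 7 held 4 (3.33% against 9.26%). Within 100 kb of each other lay Fgf2 and Bbs12, which overlap and share a D0 peak, Trp63 and Leprel1, 67.2 kb apart, and Tmc3 and Il16, 17.2 kb apart. A D0 peak was shared with another protein-coding gene by 12 members, so their H3.3 cannot be assigned to 1 gene. Of the 622 D0 peaks in members, 81.0% had their midpoint in an intron, 11.7% within 1 kb of a start, 4.66% in an exon and 2.57% in the flanks, against 76.5%, 13.3%, 7.90% and 2.33% of 51566 peaks in retained genes.

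H3K4me3 was read at the starts, as a peak that overlaps 1 kb to either side of an annotated start of the gene. In D0, 100 of 120 members had it (83.3%, 95% Wilson interval 75.7% to 88.9%), with 66.6% of all protein-coding genes and 97.0% of retained genes. The intervals cover counting error only. Early on the route the number of members with H3K4me3 was 98 in D3 (81.7%, all genes 65.2%), 101 in D6T- (84.2%, all genes 66.1%) and 100 in D9T- (83.3%, all genes 65.1%). Of the SSEA-1-positive cells, D12S+ had it at 91 members (75.8%, all genes 62.9%) and D16S+ at 50 (41.7%, all genes 46.5%). For iPSCs the number was 86 (71.7%, interval 63.0% to 79.0%, all genes 64.9%). D16S+ was the library of this mark with the lowest share of tags in peaks, 3.71%, and retained genes were also at their lowest there, 77.6%. Up to D12S+ members were above the share of all genes, while in D16S+ (interval 33.2% to 50.6%) and in iPSCs the members' interval held that share. The iPSC share was 62.7% for the genes chosen by any overlap of an H3.3 peak in place of its midpoint. With H3K4me3 peaks of at least 8-fold over input, it was 78.3% of members and 62.0% of all genes in D0, and 22.5% (interval 15.9% to 30.8%) and 26.2% in iPSCs, so the number of members with the mark in iPSCs rests largely on weaker peaks. Without that limit, of the 100 members with H3K4me3 in D0, 86 had it in iPSCs (86.0%, interval 77.9% to 91.5%), against 98.0% of 7584 retained genes and 94.2% of 14888 protein-coding genes. No member had it in iPSCs and not in D0.

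Where H3K4me3 was present in both, its level was lower in iPSCs than in D0 for all 86 members. The median change was -2.25 on the log2 scale of the highest peak score at a start, but the same median was -1.45 over 14021 protein-coding genes and -1.48 over retained genes, a shift that goes with 30.4% of tags in peaks in D0 and 12.7% in iPSCs. Twist2 had H3K4me3 scores of 748 and 321 on days 0 and 3, 366 and 147 in the Thy-1-negative cells of days 6 and 9, 19.6 and 11.7 in D12S+ and D16S+, and 35.2 in iPSCs. The highest scores of members in iPSCs were those of Sema5a (122, with 583 in D0), Cited2, a transcriptional coregulator (101, with 520), Pop4, a subunit of RNase P (90.4, with 186), Apoh (89.7, with 336) and the golgin Blzf1 (87.2, with 239). The start of Apoh, a plasma glycoprotein gene, lies within 2 kb of a start of Prkca, and 9 members in all had another protein-coding gene's start that near, Fgf2 and Bbs12 among them, so that their H3K4me3 may belong to either gene.

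The 14 members with H3K4me3 in D0 and none in iPSCs were Col6a3 (571.8 in D0), Pcdh9 (249), Angpt1 (243), Pla2g4a (134), Cd34 (131), Masp1 (131), Ccl7 (123), Acta2 (114), Ccdc80 (106), Adcy7 (85.1), Il16 (73.8), Tmc3 (22.9), Tigit (11.0) and Trp63 (10.1). Col6a3, Angpt1, Masp1, Ccl7 and Ccdc80 encode secreted proteins, and Pcdh9, Cd34, Adcy7 and Tigit membrane proteins. In Col6a3 the score was 572 on day 0, 5.73 on day 3, and 22.0 and 19.3 in D6T- and D9T-, with no peak afterwards. In Pcdh9 it was 249, 211, 298 and 158 in the same libraries, with no peak afterwards. The score of Col6a3 was thus low from day 3, and that of Pcdh9 was still high on day 6. H3K4me3 was absent from 12 of the 14 in D16S+ and from 6 of the 14 in D12S+.

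A CpG-poor start was shared by 13 of these 14, a feature looked at after the counts above were seen. The observed over expected CpG ratio of the 250 bases before the gene start was 0.534 in the median member, 0.738 in retained genes and 0.496 in all protein-coding genes. A ratio of at least 0.6 was found for 50 of 120 members (41.7%), against 42.0% of all protein-coding genes and 68.1% of retained genes. Members were thus near all genes in this share. Of those 50, called CpG-rich, all had H3K4me3 in D0 and 49 in iPSCs. Of the 70 CpG-poor members, 50 had it in D0 (71.4%, interval 59.9% to 80.7%) and 37 in iPSCs (52.9%, interval 41.3% to 64.1%). CpG-poor starts of retained genes had it in 91.0% and 86.9%, and those of all protein-coding genes in 44.1% and 41.4%. Il16, with a ratio of 0.651, was the only CpG-rich member with the mark in D0 and none in iPSCs.

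The starts of 10 members are shown for their CpG content: the 5 with the most H3K4me3 in D0 among those without it in iPSCs, and the 5 with the most in iPSCs. The sequences are the 250 bases before the annotated gene start, in transcript direction, from the mm9 genome, with every CpG in capitals. Of those without the mark in iPSCs, Col6a3 (chr1:92740530-92740779, minus strand) has 3 CpGs, Pcdh9 (chr14:94287952-94288201, minus) 2, Angpt1 (chr15:42508524-42508773, minus) 6, Pla2g4a (chr1:151808421-151808670, minus) 3 and Cd34 (chr1:196764765-196765014, plus) 6. Of those with the most of it, Sema5a (chr15:32174318-32174567, plus strand) has 17 CpGs, Cited2 (chr10:17442784-17443033, plus) 26, Pop4 (chr7:39056368-39056617, minus) 17, Apoh (chr11:108204418-108204667, plus) 18 and Blzf1 (chr1:166237621-166237870, minus) 17.
Col6a3: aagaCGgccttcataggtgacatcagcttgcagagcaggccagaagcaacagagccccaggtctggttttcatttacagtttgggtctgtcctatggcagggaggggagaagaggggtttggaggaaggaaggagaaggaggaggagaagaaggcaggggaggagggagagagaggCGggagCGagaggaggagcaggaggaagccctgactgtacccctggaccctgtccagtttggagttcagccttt
Pcdh9: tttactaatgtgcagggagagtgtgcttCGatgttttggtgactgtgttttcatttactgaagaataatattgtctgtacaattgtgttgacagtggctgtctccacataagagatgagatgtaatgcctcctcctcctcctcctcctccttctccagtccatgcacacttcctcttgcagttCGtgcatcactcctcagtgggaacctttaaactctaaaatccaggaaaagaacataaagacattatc
Angpt1: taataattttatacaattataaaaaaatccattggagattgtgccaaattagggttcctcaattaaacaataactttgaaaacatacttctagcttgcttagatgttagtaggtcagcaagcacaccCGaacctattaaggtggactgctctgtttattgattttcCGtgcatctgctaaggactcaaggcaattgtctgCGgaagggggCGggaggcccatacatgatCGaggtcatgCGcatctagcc
Pla2g4a: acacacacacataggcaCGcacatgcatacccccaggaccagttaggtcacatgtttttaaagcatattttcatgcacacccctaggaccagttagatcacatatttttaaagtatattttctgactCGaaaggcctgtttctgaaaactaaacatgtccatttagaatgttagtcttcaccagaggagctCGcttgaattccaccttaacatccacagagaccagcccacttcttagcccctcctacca
Cd34: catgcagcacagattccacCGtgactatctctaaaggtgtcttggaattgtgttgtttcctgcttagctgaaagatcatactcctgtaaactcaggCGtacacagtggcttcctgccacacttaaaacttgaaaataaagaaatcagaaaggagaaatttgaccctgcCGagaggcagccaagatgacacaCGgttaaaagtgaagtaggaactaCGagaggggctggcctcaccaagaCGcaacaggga
Sema5a: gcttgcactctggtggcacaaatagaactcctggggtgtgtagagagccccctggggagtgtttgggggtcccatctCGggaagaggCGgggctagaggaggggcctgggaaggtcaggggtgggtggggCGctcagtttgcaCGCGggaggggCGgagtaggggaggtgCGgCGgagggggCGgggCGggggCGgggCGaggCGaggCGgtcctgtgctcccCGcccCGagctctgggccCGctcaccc
Cited2: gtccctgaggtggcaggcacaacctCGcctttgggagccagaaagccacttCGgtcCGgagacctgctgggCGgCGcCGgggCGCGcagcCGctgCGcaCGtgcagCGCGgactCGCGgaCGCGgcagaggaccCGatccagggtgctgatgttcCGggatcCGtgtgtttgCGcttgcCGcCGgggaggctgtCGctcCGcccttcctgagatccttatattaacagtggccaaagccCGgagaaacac
Pop4: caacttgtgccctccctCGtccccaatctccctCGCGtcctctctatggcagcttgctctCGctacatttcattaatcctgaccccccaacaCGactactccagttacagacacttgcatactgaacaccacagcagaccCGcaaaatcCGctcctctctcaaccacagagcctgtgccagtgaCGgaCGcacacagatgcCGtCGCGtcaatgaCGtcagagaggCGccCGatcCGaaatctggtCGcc
Apoh: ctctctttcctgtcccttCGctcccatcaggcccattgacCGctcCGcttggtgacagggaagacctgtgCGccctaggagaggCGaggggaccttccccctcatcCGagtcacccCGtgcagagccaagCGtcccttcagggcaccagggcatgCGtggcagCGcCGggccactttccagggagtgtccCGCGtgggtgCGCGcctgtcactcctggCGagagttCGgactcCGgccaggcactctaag
Blzf1: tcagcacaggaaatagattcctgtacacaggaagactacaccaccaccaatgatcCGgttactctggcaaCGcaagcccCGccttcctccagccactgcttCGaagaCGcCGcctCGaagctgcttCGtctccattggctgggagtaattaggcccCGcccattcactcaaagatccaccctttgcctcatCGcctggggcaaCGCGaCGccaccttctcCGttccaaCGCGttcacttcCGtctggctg

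The 5 sequences without the mark in iPSCs hold 2 to 6 CpGs each and the other 5 hold 17 or more. In the order printed, their observed over expected ratios are 0.172, 0.180, 0.567, 0.285 and 0.446 for the first 5, and 0.590, 0.934, 0.962, 0.658 and 0.888 for the last 5. The ratio does not part them fully. Angpt1, without the mark in iPSCs, and Sema5a, with the highest score there, have near-equal ratios of 0.567 and 0.590, both under the limit of 0.6, at a GC content of 41.2% and 72.0%.

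H3K36me3, read as a peak with its midpoint in the gene or 1 kb to either side, was in 78 of 120 members in D0 (65.0%, interval 56.1% to 72.9%), against 47.1% of all protein-coding genes and 85.5% of retained genes. In iPSCs it was in 19 members (15.8%, interval 10.4% to 23.4%), against 34.3% of all genes and 68.6% of retained genes. Members stood above all genes in D0 and below them in iPSCs. The second of these did not hold for the genes chosen from equal numbers of top-scoring peaks or from peaks of at least 4-fold, of which 38.5% and 41.8% had H3K36me3 in iPSCs. With H3K36me3 peaks of at least 8-fold over input, the mark was in 22.5% of members and 14.4% of all genes in D0, and in iPSCs the members' 5.0% (interval 2.31% to 10.5%) held the 5.85% of all genes in its interval. Between these ends the counts were 67 in D3 (55.8%, all genes 43.5%), 52 in D6T- (43.3%, all genes 37.7%) and 73 in D9T- (60.8%, all genes 46.9%). The SSEA-1-positive cells had counts of 26 on day 12 (21.7%, all genes 23.3%) and 25 on day 16 (20.8%, all genes 25.4%). The share of tags in peaks moved with these counts, from 31.3% in D0 and 42.4% in D9T- to 1.07% in D12S+, 1.99% in D16S+ and 2.88% in iPSCs, and its part in the member counts was not tested. Of the 78 members with H3K36me3 in D0, 16 had it in iPSCs (20.5%, interval 13.0% to 30.8%), while in the same iPSC library 75.4% of 6682 retained genes and 64.2% of 10541 protein-coding genes with the mark in D0 had it. Members were chosen to have no H3.3 peak in iPSCs, where 95.1% of retained genes and 59.1% of all genes had one. The choice thus parted these groups in iPSCs beforehand, and its part in the lower shares of both marks was not tested.

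**Figure D3:**
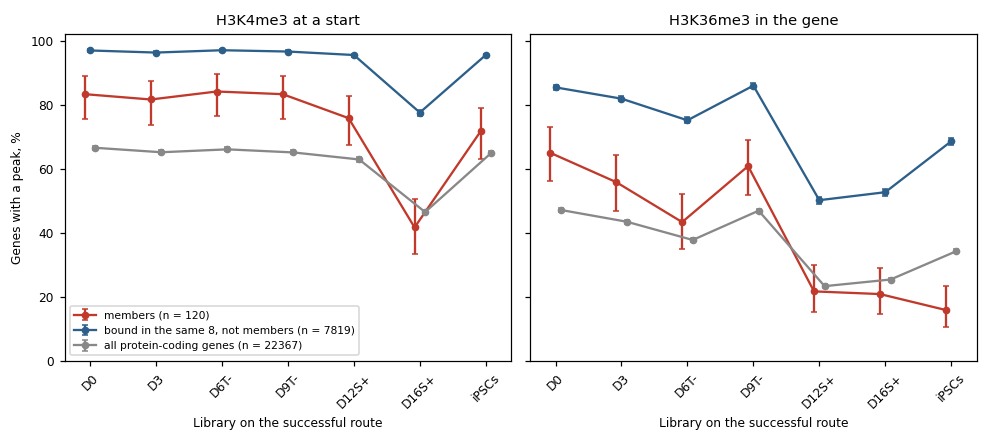
Share of genes with H3K4me3 at a start (left) and H3K36me3 in the gene (right) in each library of the successful route, in percent. Points are the 120 members (red), the 7819 retained genes (blue) and all 22367 protein-coding genes (grey), and bars are 95% Wilson intervals. The members' share of H3K36me3 lies above that of all genes in D0 (65.0% against 47.1%) and below it in iPSCs (15.8% against 34.3%).

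The most H3K36me3 among members in D0 was found in Cdh11, Col6a3, Pdgfra, Man1a and Dnajc10. Cdh11 had summed scores of 3172 in D0, 1009 in D3, 89.4 in D6T- and 90.3 in D9T-, and no peak in D12S+, D16S+ or iPSCs. Col6a3 had 1711 in D0, 35.9 in D3, none in D6T- and 55.3 in D9T-, and none later. Pdgfra had 1545 in D0 and 96.9 in D3, 13.2 in D9T- and 17.4 in D16S+, and no peak in D6T-, D12S+ or iPSCs. None of these 3 genes had a peak in iPSCs. Apart from D0, Cdh11 and Pdgfra were highest in D3 and Col6a3 in D9T-.

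The highest H3K36me3 sums of members in iPSCs were those of Dld, the dihydrolipoamide dehydrogenase of mitochondria (78.8), Zdhhc13, a palmitoyltransferase (49.4), Tgm2, the tissue transglutaminase (43.8), Dnajc10, a disulfide reductase of the endoplasmic reticulum (34.0), and Cdc7, the kinase that fires replication origins (31.5). Dld had 50.7 in D0 and 1005 in D9T-, and Zdhhc13 322 and 1028. Man1a, a Golgi mannosidase, had 1099 in D0 and no peak in iPSCs, while Dnajc10 had 928 and 34.0. Of the 19 members with H3K36me3 in iPSCs, 3 had none in D0. By role, 1 of 17 matrix and adhesion genes (Tgm2) and none of 5 cytoskeletal genes had H3K36me3 in iPSCs, where 11 and 4 had it in D0, and 4 of 13 enzymes and 3 of 12 genes of vesicle traffic and organelles had it in iPSCs, where 10 and 9 had it in D0. It was also in 2 of 21 signalling genes, 1 of 11 transcription factors and cofactors and 0 of 5 channels and transporters in iPSCs. Immune effectors had it in 0 of 2, DNA and RNA processing in 1 of 3 and the remaining genes in 7 of 31. These groups are small and hand-made, and differences between them were not tested.

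Joining both marks, 74 members (61.7%, all genes 44.7%) carried H3K4me3 and H3K36me3 in D0 and 17 (14.2%, all genes 32.8%) in iPSCs. H3K4me3 alone was carried by 26 in D0 (21.7%, all genes 21.8%) and 69 in iPSCs (57.5%, all genes 32.1%). Neither mark was carried by 16 in D0 (13.3%, all genes 31.0%) and 32 in iPSCs (26.7%, all genes 33.6%). In D0 the members' share with H3K4me3 alone was thus near that of all genes. Retained genes carried both in 84.0% of cases in D0 and 67.3% in iPSCs, H3K4me3 alone in 13.0% and 28.3%, and neither in 1.53% and 3.13%. In iPSCs this too sets genes chosen without H3.3 there beside genes of which 95.1% had it. No H3K4me3 in any of the 7 libraries was found at 16 members, among them Arhgap15, a Rac GTPase-activating protein expressed in blood cells, Itgb1bp2, Abca12 and 9930023K05Rik. No H3K36me3 in any of the 7 was found at 27. No share over all genes stands beside either count, so neither can say whether members differ from other genes. Adcy7 was the only gene with H3K4me3 in D0, none in iPSCs, and H3K36me3 in iPSCs, and that sum was 6.38 with 47.2 in D0. Within D0, 27.3% of the 622 H3.3 peaks in members overlapped an H3K4me3 peak and 25.1% an H3K36me3 peak, against 27.6% and 42.4% of peaks in retained genes.

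Since the rule asked only for a peak in both Thy-1 fractions, their levels could be set side by side. On day 6 the summed H3.3 was lower in D6T- than in D6T+ for 39 of 120 members (32.5%), where 21.8% of the 10318 genes bound in both were lower. On day 9 it was lower in D9T- than in D9T+ for 78 members (65.0%), where 36.4% of 10530 genes were lower. The median log2 ratio of T- over T+ was 0.65 for members and 0.82 for all genes on day 6, and -0.31 and 0.28 on day 9. The interval of the members' median was 0.28 to 1.06 on day 6, which held the median of all genes, and -0.69 to -0.11 on day 9. On day 6 the quartiles were -0.35 and 1.57 for members and 0.13 and 1.53 for all genes. Members thus spread further on the low side on day 6, with a median near that of all genes. The Thy-1-negative libraries had more tags in peaks, 19.3% against 10.9% on day 6 and 14.8% against 12.1% on day 9. Both fractions took part in choosing the members, so these values are a description.

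The lowest D9T- over D9T+ ratios belonged to Twist2 (-4.94 on the log2 scale), Ereg (-3.08) and Emilin2 (-2.75). Ereg, an autocrine growth factor gene, had 245 in D0 and 30.4 in D3, 64.5 and 13.0 in the Thy-1-negative cells of days 6 and 9, 211 and 109 in the Thy-1-positive cells, and 46.8 and 19.2 in D12S- and D16S-. The highest ratios were those of 9330182L06Rik (2.86), Leprel1 (2.33) and 9930023K05Rik (2.06). In Leprel1 the sums were 72.8 in D0 and 29.8 in D3, 96.6 and 71.8 in the Thy-1-negative cells of days 6 and 9, 29.8 and 14.2 in the Thy-1-positive cells, and 136 and 32.5 in D12S- and D16S-. Leprel1 had more H3.3 in the Thy-1-negative fractions than in the Thy-1-positive ones until day 9, then none in D12S+. The same order was seen in Pcdh9, with 134 and 106 in D6T- and D9T- against 7.91 and 26.0 in D6T+ and D9T+.

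**Figure D4:**
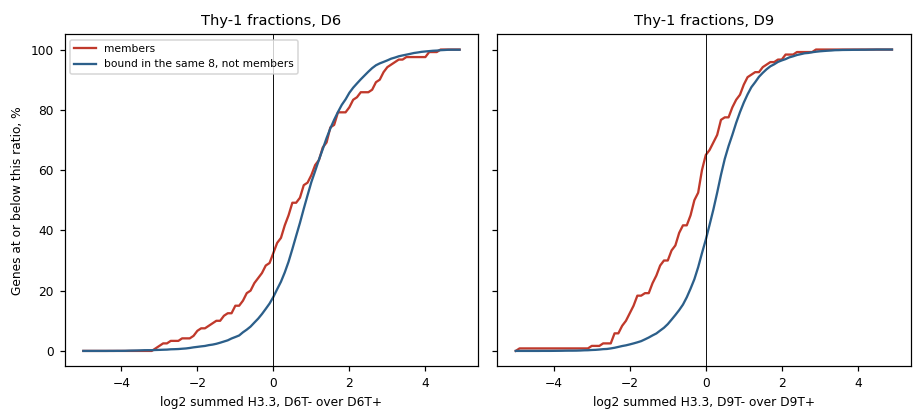
Cumulative share of genes (percent, vertical axis) at or below each log2 ratio of summed H3.3 in Thy-1-negative over Thy-1-positive cells (horizontal axis), on day 6 (left) and day 9 (right), for the 120 members (red) and the 7819 retained genes (blue). The members' curve lies to the left of the other around 0 on both days, with medians of 0.65 against 0.87 on day 6 and -0.31 against 0.26 on day 9. On day 6 the curves meet at a ratio of 1.2, with 63.3% and 63.5% of genes.

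Transdifferentiation gave H3.3 values that the rule had not used. In MEF, the fibroblasts of that experiment, 98 of 120 members were bound (81.7%, interval 73.8% to 87.6%), against 51.4% of all protein-coding genes and 90.4% of retained genes. In D4 116 members were bound (96.7%, all genes 66.8%, retained genes 96.5%). In cKit+ it was 57 (47.5%, interval 38.8% to 56.4%), against 32.1% of all genes and 67.0% of retained genes, and in cKit- 67 (55.8%, interval 46.9% to 64.4%), against 30.5% and 61.6%. Members were thus above all genes in each of the 4 libraries. They had been chosen as bound in 8 libraries, among them D0, where 59.0% of all genes were bound, and they were longer genes. A share above that of all genes is therefore little more than a result of the choice, and retained genes, bound in the same 8, are the closer comparison. Against retained genes they were lower in MEF and cKit+, about equal in D4, and lower in cKit- by a difference that lay within the members' interval. Of the 98 members bound in MEF, 50 were bound in cKit+ (51.0%, interval 41.3% to 60.7%), where 68.8% of 7066 retained genes and 52.7% of 11490 protein-coding genes were. The cKit+ and cKit- libraries had 1.65% and 2.31% of tags in peaks against 7.64% in MEF and 37.2% in D4, so absence in them cannot be told apart from low enrichment.

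Twist2 had 198 in MEF, 417 in D4, no peak in cKit+ and 4.94 in cKit-. Cdh11 had 313, 1201, 14.3 and 10.4 in the same libraries, and Acta2 had 256, 611, 15.0 and 11.3. These genes were highest in D4, the library with the most tags in peaks, and low in both sorted fractions. The highest members in cKit+ were 1700112E06Rik (74.5, with 313 in MEF), Pla2g4a (69.9, with 56.1) and Man1a (55.0, with 18.1), and the last 2 were higher still in cKit-, with 123 and 127. Pla2g4a and Man1a had more H3.3 in cKit+ than in MEF. Mmp2, Pdgfra and Lama2 had no peak in cKit+. All 4 libraries held 36 members, and Itgb1bp2 was in none.

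**Figure D5:**
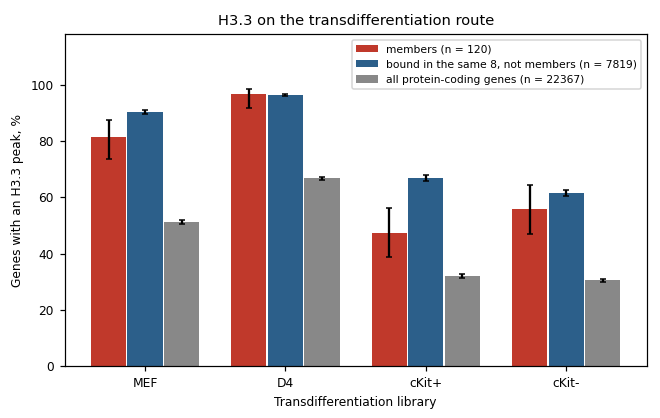
Share of genes with an H3.3 peak (percent, vertical axis) in the 4 transdifferentiation libraries (horizontal axis), for the 120 members (red), the 7819 retained genes (blue) and all 22367 protein-coding genes (grey), with 95% Wilson intervals. Members are at 81.7% in MEF, 96.7% in D4, 47.5% in cKit+ and 55.8% in cKit-.

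The binding motif of AP-1, the Fos and Jun factors of fibroblast enhancers, was searched as the letters TGACTCA on both strands in 300 bp windows centred on D0 H3.3 peaks. It was in 55 of the 622 windows of members (8.84%, interval 6.86% to 11.3%), in 9.18% of all D0 windows and in 7.22% of 39364 windows in genes bound in all 12 libraries. The share of members was thus near that of all D0 peaks. Before the gene starts, the same letters were in 4 of 120 members (3.33%) and 3.85% of all protein-coding genes, RUNX letters (TGTGGT) in 14.2% and 12.8%, and TEAD letters (GGAATG) in 14.2% and 11.4%.

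Membership depended on how peaks were counted. With the 33972 top-scoring peaks of each reprogramming library, 78 genes met the rule, and 23 of them were among the 120 (19.2% of the 120, 29.5% of the 78). With peaks of at least 4-fold over input 91 genes met it, 26 of them in common. Leaving D16S+ or ESD3 out of the rule gave 142 and 172 genes, and both sets hold all 120 members by construction. Both settings only relax the rule, so only the other settings could remove a member. In every one of 7 settings 6 members met the rule, and they were chosen after their values were seen: Acta2, Il15ra, an interleukin receptor chain, Qsox1, a sulfhydryl oxidase, Mrpl1, a protein of the mitochondrial ribosome, Fam171a1 and 1700112E06Rik. Acta2 and Fam171a1 had H3.3 sums of at least 50.4 and 82.9 in each of the 8 libraries. Twist2 and Col6a3 met it in 6 of the 7, Twist2 not with equal numbers of peaks and Col6a3 not with the 4-fold limit, and Cdh11 met it in neither of these 2.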

How the data were processed

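ChIP-Seq peak lists of 30 libraries were used: 16 of H3.3, 7 of H3K4me3 and 7 of H3K36me3. The 16 input libraries entered only through the authors' peak calls. The authors mapped reads to mm9 with STAR, kept uniquely mapped reads, and called peaks per library against input with HOMER in histone style (versions not given in the sources used here). The score in the deposited lists is a signal, the tag count of a peak normalized to 10 M tags. The deposited ratio is a fold over input, at least 2 for H3.3 and 4 for the other marks. No peak was pooled over libraries.

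Genes were the 22367 protein-coding entries of GENCODE vM1 on mm9, by gene identifier, on chromosomes 1 to 19, X and Y. H3.3 and H3K36me3 peaks were placed by midpoint, and a gene's level is the sum of its peak scores. A gene in an overlap shares peaks. Coordinates and sequences are mm9. The members and all lists were chosen with earlier results of these data known. Named were members highest or lowest in each measure by rules on D0 H3.3, H3K4me3, H3K36me3, cKit+ H3.3 and the day 9 ratio, the top 3 of each function list, and genes at the limits of the rule. The count of 1 function list is not reported here. Other genes of small counts were named after their values were seen. Each group had 1 library, so shares carry 95% Wilson intervals and nothing was tested between libraries. Python 3.11.15 with numpy 2.4.6, pandas 2.3.3, scipy 1.17.1 and pysam 0.24.0 was used.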

Additional observations from a re-analysis of the deposited data

How the results depend on the processing

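Placement by gene without flanks or by nearest start moved none of the 11 main values beyond their interval. The number of members changed by no more than 1.5 times, and 95 and 87 of the 120 members stayed in. The same held for the values on leaving D16S+ or ESD3 out of the rule, but those sets hold all 120 members by construction. Any overlap in place of the midpoint moved H3K4me3 in iPSCs to 62.7%. With the 33972 top-scoring peaks of each reprogramming library, the members were 78 genes, with H3K4me3 in 91.0% in D0 and 82.1% in iPSCs, H3K36me3 in 80.8% and 38.5%, H3.3 in MEF in 89.7% and in cKit+ in 62.8%, and a median log2 ratio of 0.22 on day 6. With peaks of at least 4-fold, H3K4me3 was at 96.7% in D0 and 91.2% in iPSCs, H3K36me3 at 85.7% and 41.8%, cKit+ at 62.6%, the day 9 ratio at -0.83 and AP-1 letters in 6.67% of windows. These 2 settings choose largely different genes, so the values belong to other members. D0 H3.3 sums of named genes also depended on the setting. Nearest start moved 12 of them and left 32 the same, top-scoring peaks moved 32 and left 12, and the 4-fold limit moved 34 and left 10. By nearest start Mmp2 had 39.9 in place of 219, and Fgf2 166 in place of 299. For the 120 members, a midpoint of H3K4me3 anywhere in the gene gave 90.8% in D0, and peaks of at least 8-fold gave H3K4me3 in 22.5% in iPSCs and H3K36me3 in 22.5% in D0 and 5.0% in iPSCs. The lower H3K36me3 in iPSCs than in D0 was seen in all settings run. All protein-coding genes fell too, from 47.1% to 34.3%, and from 14.4% to 5.85% with peaks of at least 8-fold, so the direction alone is not particular to members. With the 25593 top-scoring peaks of each transdifferentiation library MEF was at 59.2%, and windows of 500 bp held AP-1 letters in 14.6%. No paired analysis was possible because each group had 1 library and no result came from a test. A gene without a peak is below the calling limit of its library, and the enrichment of D12S+ and D16S+ limits what absence there can show.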
